A study of Mus musculus with 6 samples.

Results

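Cytosolic phosphoenolpyruvate carboxykinase (*Pck1*) and 6 genes of renal ammonia and acid-base handling were followed in kidneys in which adiponectin was switched on in the tubules. The 7 genes were *Pck1*, the glutamine transporter *Slc38a3*, glutamate dehydrogenase *Glud1*, the proton exchanger *Slc9a3*, the bicarbonate cotransporter *Slc4a4* and the dicarboxylate transporters *Slc13a2* and *Slc13a3*. They were picked by symbol from the 54532 genes of the count table, and all 7 passed the filter on low counts that left 16017 genes for testing. The question was whether a higher *Pck1* level came with the mRNAs of the programme that the kidney is known to use in acidosis. *Pck1* was picked because its difference in this same comparison was known, so differences of the 7 genes are given as a description, with intervals and without a test.

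Whole kidneys came from male mice on a C57BL/6 background, and both groups carried the *KsprtTA* transgene and ate chow with 600 mg/kg doxycycline for 4 days. Control mice carried *KsprtTA* without the target transgene (genotype WT in the labels), and KSPAPN mice carried *KsprtTA* together with TRE-*adiponectin*. The *KsprtTA* driver acts along the whole nephron epithelium, collecting duct included, so the transgene was not restricted to the proximal cells in which ammonia is made. Each group had 3 libraries, each a pool of RNA from 3 mice, and ages were not given in the sources used here. Libraries held 17183358 to 18205023 counts (Control) or 18150442 to 20871173 counts (KSPAPN). *Adipoq*, the induced gene, had 0 to 2 reads in Control and 17483 to 26811 in KSPAPN. One label of the extraction names liver. Hepatocyte markers summed to at most 189 CPM (counts scaled to total counts), against at least 16751 CPM for proximal tubule markers.

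As background, proximal tubule cells make ammonia from glutamine, which enters across the basolateral membrane through SNAT3 (*Slc38a3*). Glutamate dehydrogenase (*Glud1*) releases ammonium from the glutamate that glutamine yields, and the carbon left over leaves the citric acid cycle through phosphoenolpyruvate carboxykinase (*Pck1*) toward glucose. Ammonium and protons leave into the lumen with the help of NHE3 (*Slc9a3*), the newly formed bicarbonate returns to blood through NBCe1 (*Slc4a4*), and citrate is taken back from the lumen by NaDC1 (*Slc13a2*), while NaDC3 (*Slc13a3*) carries dicarboxylates across the basolateral side. In metabolic acidosis the mRNAs of *Slc38a3* and *Pck1* are known to be raised together in this segment.

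Promoter letters are shown for *Pck1*, whose promoter is known for its cAMP response, and for *Glud1*, the neighbouring enzyme whose level did not follow it. Sequences are RefSeq's, for GRCm38.p6, and stop before both the RefSeq start and the GENCODE start. For *Pck1* the GENCODE start lies first, so the letters end 25 bases short of the RefSeq start, from which positions are counted. In *Pck1* the capitals mark a cAMP response element (CRE), TTACGTCA, whose first base lies 93 bases before the RefSeq start, or 68 bases before the end of the letters shown, on the gene's own strand. The *Pck1* window is chr2:173152823-173153047 on the plus strand and the *Glud1* window is chr14:34310477-34310726 on the plus strand.
Pck1: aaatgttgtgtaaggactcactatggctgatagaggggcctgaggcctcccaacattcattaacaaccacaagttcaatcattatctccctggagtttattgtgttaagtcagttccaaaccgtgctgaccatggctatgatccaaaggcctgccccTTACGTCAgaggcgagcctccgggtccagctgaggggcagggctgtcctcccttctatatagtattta
Glud1: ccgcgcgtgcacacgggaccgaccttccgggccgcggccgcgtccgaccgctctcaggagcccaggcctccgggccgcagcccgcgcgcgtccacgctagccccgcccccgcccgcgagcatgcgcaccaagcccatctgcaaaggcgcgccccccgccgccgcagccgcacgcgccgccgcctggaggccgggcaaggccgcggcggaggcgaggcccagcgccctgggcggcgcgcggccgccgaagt

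Of the 7 genes, 6 had a promoter in the RefSeq table, and *Slc38a3* did not match. The letters searched were the CRE consensus TGACGTCA, the CRE form TTACGTCA and the HNF1 half-site GTTAAT. Both strands of the 250 bases before each RefSeq start were searched. TTACGTCA, which shares its last letters with the consensus, was taken from *Pck1* itself, so its match there was fixed in advance. The consensus was in none of the 6, and TTACGTCA was in *Pck1* alone. *Pck1* also held GTTAAT on the opposite strand, 192 bases before the RefSeq start and 167 bases before the end of the letters shown. Over all 32851 promoters searched, TTACGTCA stood in 0.448%, TGACGTCA in 1.55% and GTTAAT in 6.43%. GC content was 50.8% for *Pck1* and 82.0% for *Glud1*. These matches describe letters and were not related to binding.

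*Pck1* was the gene of the set whose level was higher in KSPAPN, by 1.98-fold. *Slc38a3* and *Glud1*, which feed glutamine carbon toward *Pck1*, had nearly equal means in both groups. The 4 transporters of protons, bicarbonate and dicarboxylates all had lower means in KSPAPN, most so for *Slc13a2* and *Slc13a3*. Levels are given as FPKM as deposited (fragments scaled to transcript length and library size), and fold changes come from the edgeR fit of the counts with TMM scaling.

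*Pck1* (ENSMUSG00000027513, GRCm38 chr2:173153048-173159273, plus strand) stood at 853, 931 and 1366 FPKM in Control 1 to 3 and at 2256, 1818 and 2137 FPKM in KSPAPN 1 to 3. The lowest KSPAPN library lay above the highest Control library, and Control 3 stood apart from the other Control libraries toward KSPAPN. Means were 1050.2 ± 277 (SD, n = 3) in Control and 2071 ± 227 (SD, n = 3) in KSPAPN, a log2 fold change of 0.99 (SE 0.18, 95% interval 0.58 to 1.39). As a share of all counts, *Pck1* alone took 0.298, 0.309 and 0.479% in Control and 0.863, 0.628 and 0.766% in KSPAPN. The 7 genes together took 0.514 to 0.706% in Control and 0.824 to 1.05% in KSPAPN, so that most of their summed reads belonged to this 1 enzyme.

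*Slc38a3* (ENSMUSG00000010064, chr9:107650634-107669530, minus strand), the basolateral entry step for glutamine, was at 13.0, 13.6 and 16.2 FPKM in Control and 18.1, 13.2 and 13.2 FPKM in KSPAPN. The groups overlapped, with KSPAPN 1 the highest library and the other KSPAPN libraries among the lowest. The log2 fold change was 0.06 (SE 0.14, 95% interval -0.25 to 0.38), and it turned to -0.10 without KSPAPN 1. The upper end of the interval corresponded to a 1.30-fold higher level.

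*Glud1* (ENSMUSG00000021794, chr14:34310727-34345265, plus strand), the mitochondrial enzyme that turns glutamate into 2-oxoglutarate, had the smallest difference of the set. It was at 109, 117 and 113 FPKM in Control and 108, 114 and 113 FPKM in KSPAPN. Means were 113 ± 3.77 and 111 ± 3.22 FPKM (SD, n = 3 each), and the log2 fold change was -0.02 (SE 0.086, 95% interval -0.21 to 0.17). Its sign was positive under 4 of the 15 other ways of processing, and the values ranged from -0.04 to 0.05. A share of 3.59% of the 100-base stretches of its transcripts was also found in transcripts of its pseudogenes *Glud-ps* and *Gm43444*, so that a small part of its reads could not be placed with certainty.

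*Slc9a3* (ENSMUSG00000036123, chr13:74121457-74169442, plus strand), the apical sodium-proton exchanger, was at 30.7, 28.8 and 30.2 FPKM in Control and 22.6, 28.8 and 26.9 FPKM in KSPAPN. KSPAPN 2 reached the lowest Control library, while KSPAPN 1 lay well below. The log2 fold change was -0.19 (SE 0.10, 95% interval -0.41 to 0.03). *Slc4a4* (ENSMUSG00000060961, chr5:88886818-89239653, plus strand), the electrogenic exit path for bicarbonate, was at 71.2, 80.6 and 72.5 FPKM in Control and 48.8, 64.8 and 72.3 FPKM in KSPAPN. KSPAPN 3 lay within the Control range and KSPAPN 1 was again the lowest library. The log2 fold change was -0.27 (SE 0.14, 95% interval -0.57 to 0.03), and both intervals took in 0.

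*Slc13a2* (ENSMUSG00000001095, chr11:78397087-78422217, minus strand), the apical transporter that returns citrate from the urine, was at 17.7, 17.1 and 22.7 FPKM in Control and 12.9, 13.0 and 16.4 FPKM in KSPAPN. Every KSPAPN library lay below every Control library, and replicate 3 was the highest in both groups. The log2 fold change was -0.44 (SE 0.14, 95% interval -0.75 to -0.13). *Slc13a3* (ENSMUSG00000018459, chr2:165405028-165473230, minus strand), its basolateral relative, was at 118, 152 and 124 FPKM in Control and 90.0, 98.2 and 92.1 FPKM in KSPAPN. The groups did not overlap and the KSPAPN libraries lay close together, with means of 131 ± 18.3 and 93.4 ± 4.27 FPKM (SD, n = 3 each). The log2 fold change was -0.49 (SE 0.11, 95% interval -0.74 to -0.24), a level 28.6% lower. An antisense gene overlaps each of them, *Slc13a2os* with 387 reads over all libraries and *Gm14437* with 114 reads, and since the strand setting of the counting was not given in the sources used here, reads of the partners cannot be told apart.

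**Figure D1:**
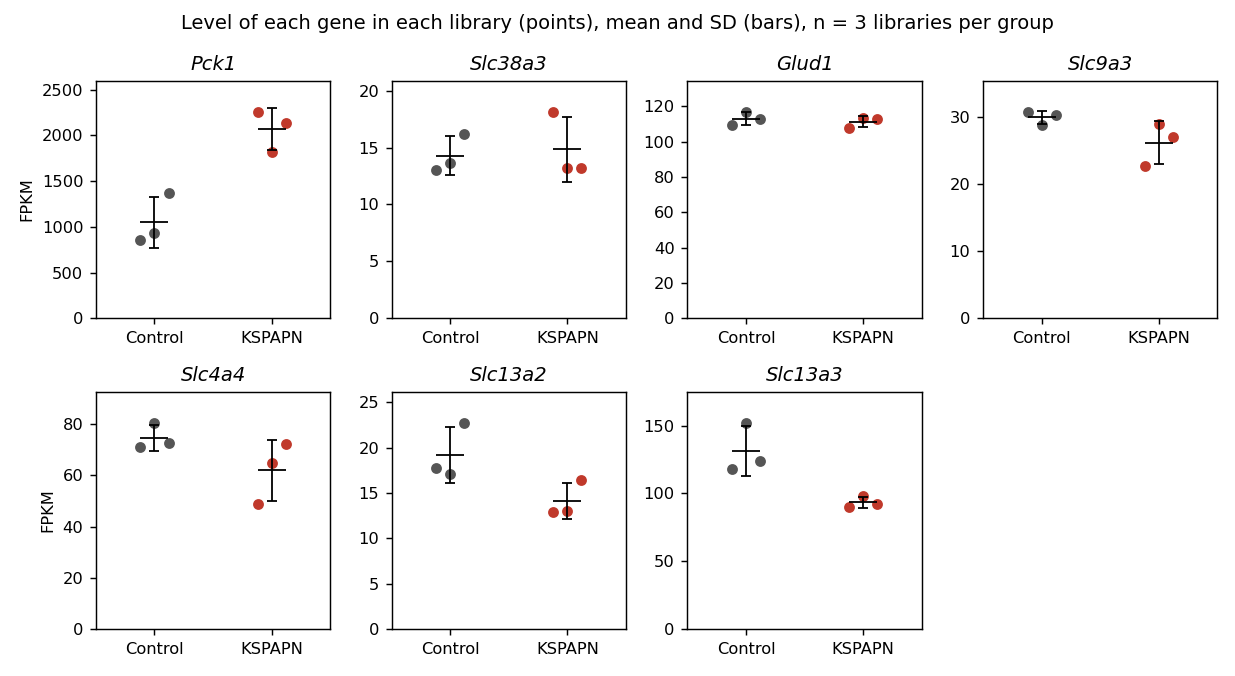
FPKM (linear axis from 0) of the 7 genes in each of the 3 Control and 3 KSPAPN libraries (points), with group means and SD as bars. Only *Pck1* sits higher in every KSPAPN library (1818 to 2256 against 853 to 1366), *Slc13a2* and *Slc13a3* sit lower in every KSPAPN library, and *Slc38a3*, *Glud1*, *Slc9a3* and *Slc4a4* overlap.

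At the threshold (adjusted p of 0.05, edgeR), 2.65% of all genes tested differed, 63 (0.393%) of them higher and 361 (2.25%) lower in KSPAPN, and 1 of the 7 genes, *Pck1*, was past it. *Slc13a3* stood just outside it. In CPM with TMM scaling the groups did not overlap for 1 gene that was higher (*Pck1*) and 3 that were lower (*Slc9a3*, *Slc13a2*, *Slc13a3*), where 24.5% of all genes tested did not overlap, with 11.4% higher and 13.1% lower. *Slc9a3* was a near tie, at 162.2 CPM in the highest KSPAPN library and 162.6 CPM in the lowest Control library, and overlapped in FPKM. In CPM of total counts alone *Slc9a3* overlapped as well, and so did *Slc13a2*, with 39.9 CPM in the lowest Control library and 41.5 CPM in the highest KSPAPN library, while *Pck1* and *Slc13a3* did not. Since the genes were chosen with this comparison known, nothing is read from these counts. *Pck1* fell outside the threshold when Control 1, Control 2 or KSPAPN 3 was left out, while its log2 fold change stayed between 0.85 and 1.22 over all 15 alternatives.

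The order of levels by length, in mean FPKM of Control, ran from *Pck1* through *Slc13a3*, *Glud1*, *Slc4a4*, *Slc9a3* and *Slc13a2* to *Slc38a3*. Each neighbour's Control range lay clear of the next. In KSPAPN *Slc13a3* was below *Glud1* in every library, at a *Slc13a3* to *Glud1* ratio of 0.817 to 0.864, and the ranges of *Slc13a2* and *Slc38a3* overlapped, so their order there was not resolved. In an order of 21995 protein-coding genes by group mean FPKM, *Slc13a3* was at rank 325 in Control and 407 in KSPAPN, *Glud1* at 399 and 316, and *Slc38a3* at 3240 and 2999. Per length, *Pck1* was the most abundant of the 7 mRNAs in both groups and *Slc38a3* the least abundant in Control.

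Ratios within a library set *Pck1* against its partners without the scaling between libraries, and are a description. The *Pck1* to *Glud1* ratio of FPKM was 7.80 to 12.1 in Control and 15.99 to 20.96 in KSPAPN. Against *Slc38a3* it was 65.5 to 84.2 and 124 to 162. Both ratios were higher in every KSPAPN library, and so was that to *Pck2*, the mitochondrial isoform, at 277 to 332 in Control and 538 to 597 in KSPAPN. The ratio to *Slc34a1*, the proximal phosphate transporter, was 0.623 to 1.22 in Control and 1.86 to 1.96 in KSPAPN. Ratios between the transporters did not separate the groups. *Slc13a3* to *Slc13a2* was 5.46 to 8.91 in Control and 5.60 to 7.56 in KSPAPN, and *Slc4a4* to *Slc9a3* was 2.32 to 2.80 and 2.16 to 2.69.

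**Figure D2:**
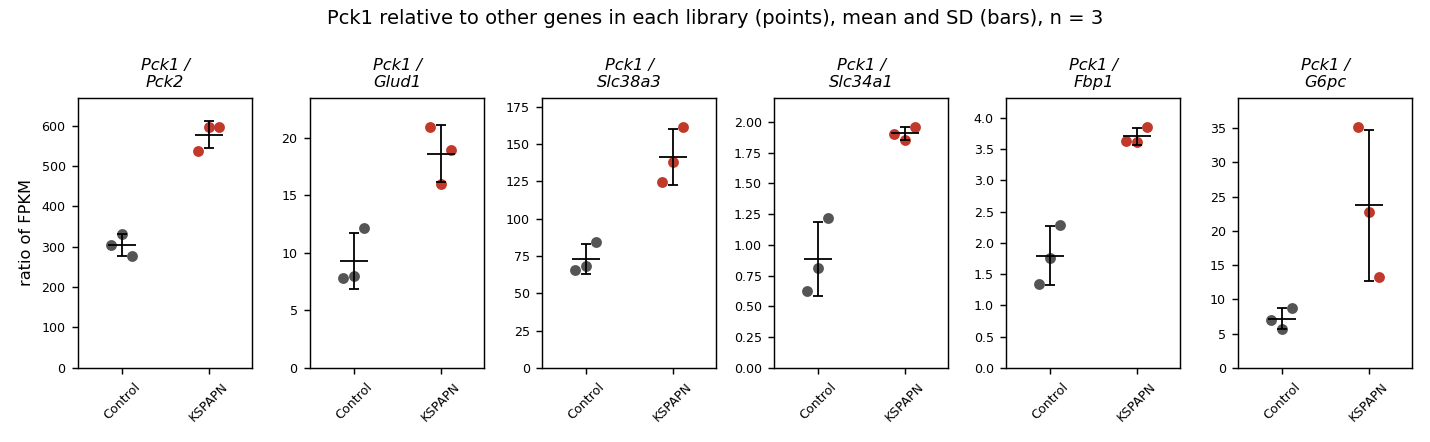
Ratio of *Pck1* FPKM to that of 6 other genes in each library (points; means and SD as bars, n = 3; linear axes from 0). Every ratio lies higher in all KSPAPN libraries, including those to *Glud1* (15.99 to 20.96 against 7.80 to 12.1) and *Slc38a3* (124 to 162 against 65.5 to 84.2).

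The wider programme was described with 8 lists of genes, 134 tested genes in all, each counted once. At an adjusted p under 0.05 (edgeR's quasi-likelihood test, Benjamini-Hochberg over all genes tested), 1 of the 134 rose and 12 fell, beside 0.393% and 2.25% of all genes tested. The median log2 fold change over the 134 genes was -0.12, beside 0.01 over all genes tested. With TMM scaling, 46 of the 134 had a positive and 88 a negative value. *Cebpa*, a transcription factor of the *Pck1* promoter, was the only 1 of the 13 to stay past the threshold with each library left out in turn. Without Control 1, Control 2 or KSPAPN 3, 1 of the 13 remained past the threshold each time, and without Control 3, KSPAPN 1 and KSPAPN 2 it was 5, 10 and 7.

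Glutamine and glutamate handling had 19 tested genes, of which 0 rose and 2 fell, with a median log2 fold change of -0.23. Glutamine synthetase (*Glul*), which consumes ammonia, was at 175, 193 and 186 FPKM in Control and 208, 218 and 248 FPKM in KSPAPN. Its groups did not overlap, but it did not pass the test (log2 fold change 0.29, SE 0.10, adjusted p = 0.162, edgeR). *Slc38a2*, a system A glutamine transporter singled out after its values were seen, was at 7.22, 8.83 and 9.69 FPKM in Control and 14.2, 11.2 and 11.8 FPKM in KSPAPN (log2 fold change 0.54, SE 0.13, adjusted p = 0.062, edgeR). The neutral amino acid carrier *Slc6a19* and the basolateral exchanger subunit *Slc7a7* had log2 fold changes of -0.23 and -0.28, and the mitochondrial glutamate carrier *Slc25a22* one of -0.30, none past the threshold. The members that fell were *Ggt1*, the brush border enzyme that splits glutathione and can release glutamate, from 335 to 411 FPKM in Control to 229 to 290 FPKM in KSPAPN (log2 fold change -0.52, adjusted p = 0.0483, edgeR), and *Gpt2*, a mitochondrial alanine aminotransferase (-0.57, adjusted p = 0.0293, edgeR).

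The path of glutamine carbon from 2-oxoglutarate to glucose had 20 tested genes, of which 0 rose and 2 fell, with a median of -0.16. The members that fell were *Sdhb*, an iron-sulphur subunit of succinate dehydrogenase, at 143 to 148 FPKM in Control and 96.7 to 106 FPKM in KSPAPN (log2 fold change -0.53, SE 0.084, adjusted p = 0.0138, edgeR), and *Slc25a10*, the mitochondrial dicarboxylate carrier (-0.46, adjusted p = 0.0498, edgeR). *Fh1*, *Mdh1* and *Mdh2*, which turn fumarate into malate and malate into oxaloacetate, had log2 fold changes of -0.25, -0.25 and -0.15, and *Ogdh*, which takes up 2-oxoglutarate, one of -0.03. Pyruvate carboxylase (*Pcx*), the other source of oxaloacetate for *Pck1*, had a value of 0.30 (SE 0.10, adjusted p = 0.162, edgeR) and did not overlap between groups. None of these passed the test. Downstream of *Pck1*, *Fbp1* had a log2 fold change of -0.07 and *G6pc* one of -0.52 with a wide spread (SE 0.28), and *Pck2* had one of 0.05.

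Proximal proton and bicarbonate transport had 21 tested genes, of which 0 rose and 1 fell, with a median of -0.07. The gene that fell was *Car4*, the membrane carbonic anhydrase of the brush border, which was at 63.8, 96.7 and 54.7 FPKM in Control and 16.9, 33.2 and 31.96 FPKM in KSPAPN (log2 fold change -1.39, SE 0.25, adjusted p = 0.0242, edgeR). Every KSPAPN library lay below every Control library. *Car14*, another membrane-bound form, had a value of -0.87 (SE 0.23, adjusted p = 0.0757, edgeR) and cytosolic *Car2* one of -0.25. *Slc9a3r1*, the scaffold that holds NHE3 at the brush border, was at a mean of 204 ± 4.91 FPKM in Control and 167 ± 17.3 FPKM in KSPAPN (SD, n = 3 each), without overlap and not past the threshold (adjusted p = 0.175, edgeR). The potassium channel genes *Kcnj15*, *Kcnj16* and *Kcnk5* had log2 fold changes of -0.22, -0.05 and -0.16.

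Distal ammonia and acid transport had 15 tested genes, of which 1 rose and 2 fell, with a median of -0.02. *Slc12a1*, the NKCC2 cotransporter through which the thick ascending limb takes up ammonium, was at 195, 182 and 211 FPKM in Control and 307, 278 and 252 FPKM in KSPAPN (log2 fold change 0.52, SE 0.11, adjusted p = 0.0437, edgeR). Summed thick ascending limb markers, which hold *Slc12a1* itself, were 3582 to 4345 CPM in Control and 3974 to 5357 CPM in KSPAPN. The remaining markers of that list, *Umod*, *Cldn16* and *Egf*, had log2 fold changes of -0.04, 0.17 and -0.19, all with overlap. The part of these markers in the result was not tested. *Rhbg*, the basolateral ammonia channel of the collecting duct, was at 4.57, 4.41 and 4.58 FPKM in Control and 1.77, 2.15 and 2.67 FPKM in KSPAPN (log2 fold change -1.04, SE 0.20, adjusted p = 0.0264, edgeR). *Rhcg*, its apical and basolateral relative, was lower without overlap at 49.0 to 51.5 FPKM in Control and 36.2 to 41.3 FPKM in KSPAPN, just short of the threshold (-0.35, adjusted p = 0.061, edgeR). *Atp4a*, a proton-potassium pump subunit, also fell (-0.85, adjusted p = 0.0482, edgeR). The anion exchangers of intercalated cells had values of -0.71 for *Slc4a1* (adjusted p = 0.0893, edgeR) and 0.20 for *Slc26a4*, and the proton pump subunit *Atp6v1b1* one of -0.16, none past the threshold. Summed intercalated cell markers were 214 to 226 CPM in Control and 227 to 236 CPM in KSPAPN (216 to 236 and 212 to 239 CPM with TMM scaling, with overlap), and their part in the result was not tested.

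Citrate and dicarboxylate handling, the pathway of *Slc13a2* and *Slc13a3*, had 13 tested genes, of which 0 rose and 2 fell, and the lowest median of the 8 lists (-0.31). The members that fell were *Slc22a6*, the basolateral organic anion transporter that runs on the 2-oxoglutarate gradient kept up by NaDC3, at 257 to 293 FPKM in Control and 187 to 206 FPKM in KSPAPN (log2 fold change -0.46, SE 0.098, adjusted p = 0.0388, edgeR), and *Slc13a4*, a scarce sulphate transporter of the same family (0.666 to 1.24 FPKM and 0.205 to 0.341 FPKM, -1.87, adjusted p = 0.0202, edgeR). *Slc13a1*, the abundant sulphate transporter of the family, had a value of 0.33 and overlapped, so that the family did not move as a block. *Slc13a5*, the citrate transporter of liver, was scarce at means of 0.270 and 0.161 FPKM. The cytosolic aconitase *Aco1* had a value of -0.31 (adjusted p = 0.103, edgeR), without overlap, while *Acly* and the citrate carrier *Slc25a1* were at 0.11 and -0.10. The succinate receptor *Sucnr1* had a value of -0.56 and overlapped.

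**Figure D3:**
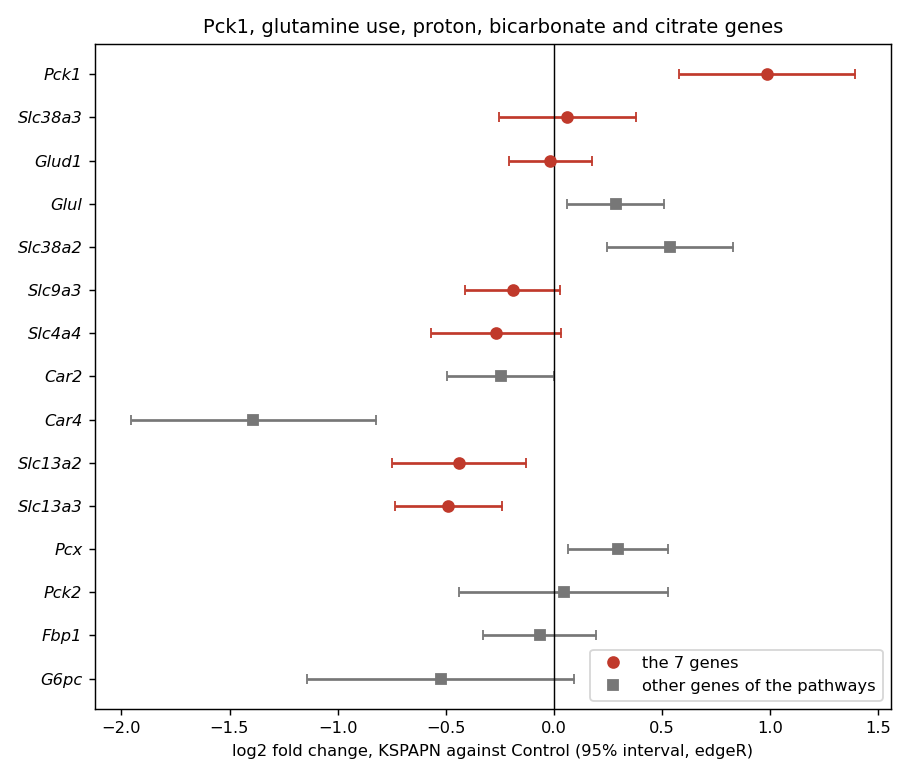
Log2 fold change of KSPAPN against Control (horizontal axis, points with 95% intervals from edgeR). Shown are the 7 genes and core genes of glutamine, proton, bicarbonate and citrate handling. *Slc38a2*, not a core gene, was added after its values were seen. *Pck1* lies at 0.99, *Slc38a3* at 0.06 and *Glud1* at -0.02, and *Slc13a2* and *Slc13a3* lie left of 0.

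Acid sensing and signals had 13 tested genes, of which 0 rose and 1 fell. *Pth1r*, the parathyroid hormone receptor, was at 245, 234 and 225 FPKM in Control and 167, 168 and 165 FPKM in KSPAPN (log2 fold change -0.49, SE 0.088, adjusted p = 0.0222, edgeR), with groups far apart for their spread. The alkali sensor *Insrr*, the kinase *Ptk2b* and the angiotensin receptor *Agtr1a* had values of -0.04, -0.07 and -0.07. *Gpr4*, a proton-sensing receptor, and *Edn1* were scarce, at 1.67 and 0.723 FPKM in Control, and had values of -0.46 and 0.41, neither past the threshold.

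Regulators of *Pck1* transcription had 26 tested genes, of which 0 rose and 2 fell, with a median of -0.06. *Cebpa* was at 19.7, 15.9 and 14.8 FPKM in Control and 5.91, 8.65 and 6.35 FPKM in KSPAPN (log2 fold change -1.27, SE 0.16, adjusted p = 0.00613, edgeR). *Klf15*, a glucocorticoid- and fasting-responsive factor, was at 44.6, 41.6 and 44.9 FPKM in Control and 29.0, 36.1 and 27.7 FPKM in KSPAPN (-0.49, SE 0.11, adjusted p = 0.0425, edgeR). Both factors are known activators of *Pck1* in liver, and their part in the *Pck1* level was not tested. The *Klf15* call held in 1 fit with a library left out and was lost in 5. It was also lost with total counts only, both limma fits and the GC and length correction. The factors and coactivators of the CRE, *Creb1*, *Crtc2* and *Ppargc1a*, had values of 0.17, 0.03 and 0.11, and *Hnf4a*, *Foxo1* and the glucocorticoid receptor *Nr3c1* had values of 0.03, -0.03 and 0.18, none past the threshold. Of the 7 mRNA-binding proteins linked to the pH-dependent stability of renal transcripts, 0 passed the test. *Cryz*, which binds pH-response elements in mRNA, had a value of -0.43 (adjusted p = 0.133, edgeR), and *Hnrnpd* and *Elavl1* had values of 0.13 and -0.13.

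**Figure D4:**
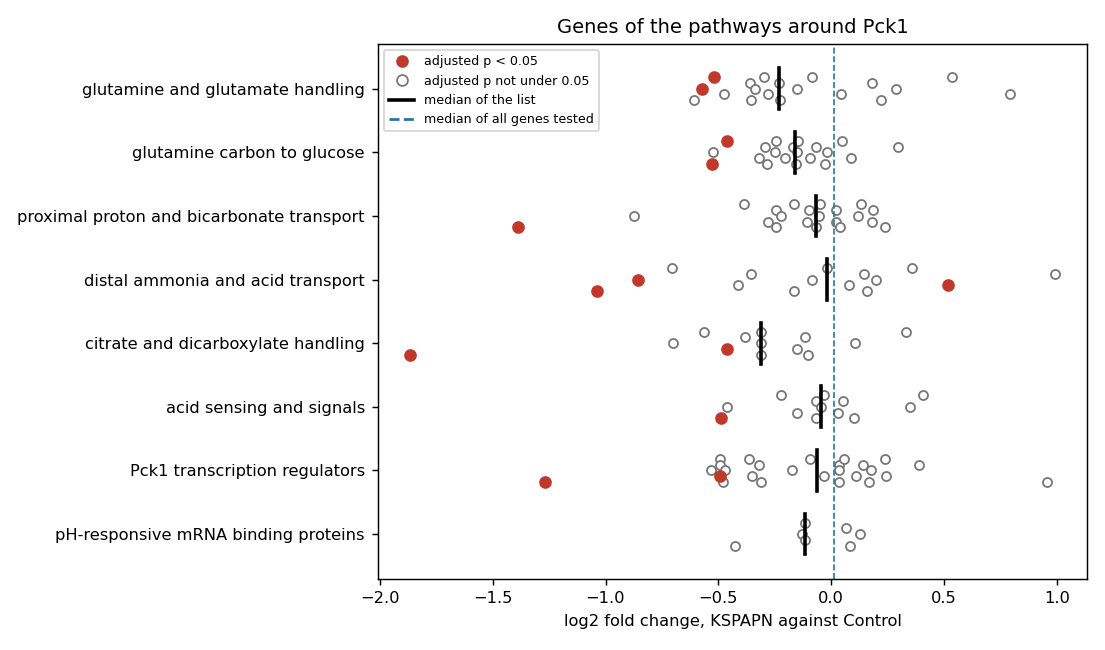
Log2 fold change (horizontal axis) of every tested gene (points) in the 8 pathway lists, with each list's median as a bar and the median of all 16017 genes tested (0.01) as a dashed line. With TMM scaling all 8 list medians lie below 0, from -0.31 for citrate and dicarboxylate handling to -0.02 for distal ammonia and acid transport. List medians were not computed with total counts only, where the median of all genes tested was 0.08. The signs of list medians near 0 are therefore not settled.

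Markers of the cells that hold these genes moved as well, and in whole kidney fewer cells of a type and less RNA per cell cannot be told apart. All 14 marker lists had every marker detected in at least 1 library. The 12 proximal tubule markers summed to 17628 to 19869 CPM in Control and 16751 to 17513 CPM in KSPAPN. These sums did not overlap but were a near tie. An exact permutation of the libraries, two-sided, gave p = 0.1, which is as low as 3 against 3 can go. In CPM with TMM scaling, 9 of the 12 markers overlapped and 3 were lower without overlap, beside 13.1% of all genes tested. Markers of the S3 segment, the last stretch of the proximal tubule, summed to 2893 to 3378 CPM and 1831 to 2244 CPM (exact p = 0.1). With TMM scaling the sums were 2916 to 3422 CPM and 1715 to 2277 CPM. Most of that was *Atp11a*, at 1919 to 2229 CPM and 1409 to 1712 CPM. Of the 6, 3 fell (*Cyp7b1*, *Slc22a7* and *Slc7a13*, named after their values were seen), beside 2.25% of all genes tested. *Slc5a1* had a log2 fold change of 0.19 and *Slc7a12* one of -2.19, both with overlap, and *Atp11a* one of -0.38. None of these latter markers passed the threshold. S1 and S2 markers overlapped at 7045 to 8610 CPM and 6240 to 7660 CPM (exact p = 0.5), but not with TMM scaling, at 7433 to 8680 CPM and 6329 to 7173 CPM. By group, *Pck1* was higher in KSPAPN, while *Slc13a2*, *Slc13a3*, *Car4* and the sum of the 12 proximal markers were lower there. By library this did not hold throughout, since Control 3 had the lowest marker sum in Control and the highest *Slc13a2* level. The part of these marker levels in any difference above was not tested.

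The pattern of *Pck1* over the 6 libraries was compared with that of 4329 protein-coding genes with a mean of at least 10 FPKM, by Pearson's r of log2 CPM. These points share libraries and groups, so r is a description. The most alike were *Etnk1* (r = 0.995), *Scamp1* (0.988), *Slc44a1* (0.987), *Hoxb9* (0.979) and *Aff1* (0.976). *Etnk1* phosphorylates ethanolamine and *Slc44a1* carries choline. *Etnk1*, the closest, was at 12.7, 12.8 and 14.3 FPKM in Control and 16.6, 16.2 and 16.9 FPKM in KSPAPN, with Control 3 the highest of its group as for *Pck1*. The most opposed were *Acss2* (r = -0.998), *Sar1a* (-0.996), *Sdha* (-0.995), *Rdh16f2* (-0.995) and *Acsf3* (-0.995). Of these, *Acss2* activates acetate, *Acsf3* malonate, and *Sdha* is the partner of *Sdhb* in succinate dehydrogenase. Their log2 fold changes ran from -1.48 for *Rdh16f2* to only -0.07 for *Sar1a*. *Sar1a* was at 31.0 to 32.5 FPKM in Control and 29.6 to 30.8 FPKM in KSPAPN. Those of the most alike ran from 0.21 for *Aff1* to 0.67 for *Hoxb9*. In all, 78 genes had r above 0.9 and 428 had r below -0.9. With log2(FPKM + 1) in place of log2 CPM, 4 of the 5 most alike and 2 of the 5 most opposed were shared.

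None of the other 6 genes was among these. *Slc38a3* had r = 0.43 with *Pck1*, *Glud1* -0.21, *Slc13a2* -0.52, *Slc4a4* -0.66, *Slc9a3* -0.73 and *Slc13a3* -0.86. Within groups, after each group's mean was removed, *Slc38a3* (0.75) and *Slc13a2* (0.73) deviated in the same direction as *Pck1*, whereas *Glud1* (0.00) did not. Control 3 was the highest Control library for both *Slc13a2* and *Pck1*. In KSPAPN the highest library differed, KSPAPN 1 for *Pck1* and KSPAPN 3 for *Slc13a2*. With 3 libraries per group, these within-group values are a description. *Slc38a2*, singled out after its values were seen, had r = 0.95 with *Pck1* over the same 6 libraries, rank 19 of 4329. Nothing is read from that r, since the choice rested on the same values. *Glul* had r = 0.82.

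**Figure D5:**
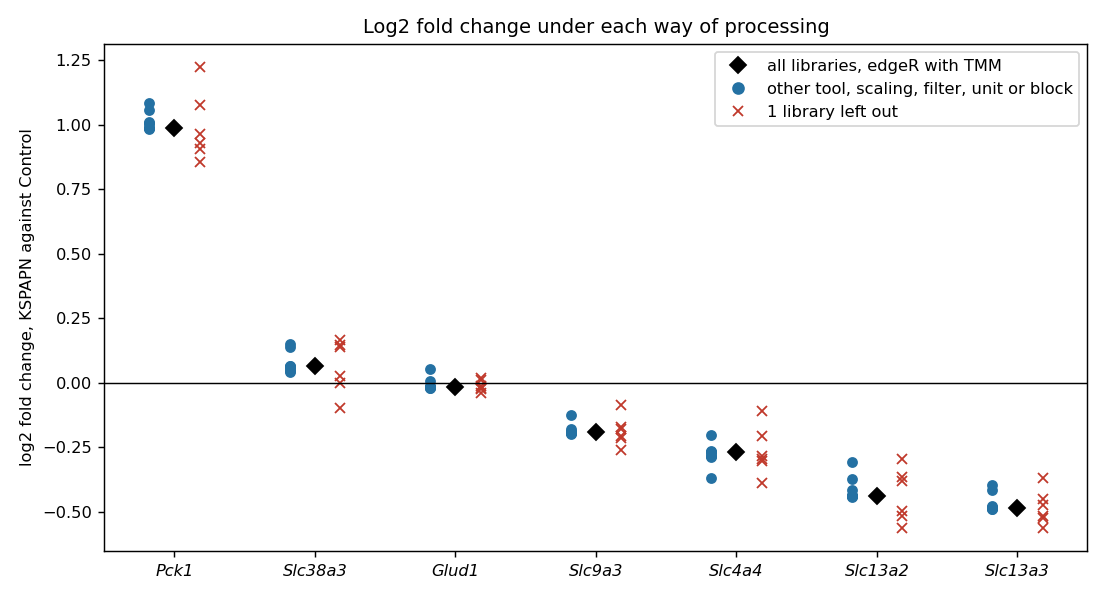
Log2 fold change of KSPAPN against Control (vertical axis) of the 7 genes under the reported fit and 15 other ways of processing (points). *Pck1* stays between 0.85 and 1.22, *Glud1* between -0.04 and 0.05, and *Slc13a2* and *Slc13a3* stay below 0.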

How the data were processed

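RNA-seq of whole kidney covered 3 Control and 3 KSPAPN libraries, each a pool of RNA from 3 mice. The authors deposited raw read counts and FPKM values for 54532 genes. The labels' processing notes list STAR 2.5, HTSeq 0.6.1, TopHat, DESeq2 and edgeR without roles. Genome build, annotation and strand setting were not given in the sources used here. Symbols and GRCm38 positions came from GENCODE M21, which matched 54495 identifiers.

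Counts were tested with edgeR 4.0.16 (TMM, filterByExpr with a minimum count of 10, quasi-likelihood test, two-sided, Benjamini-Hochberg over 16017 genes, threshold 0.05), after a test on simulated data. Genes tested held at least 99.8% of counts, and the common dispersion was 0.0225. FPKM is shown as the level and is not tested except in an alternative. Alternatives were DESeq2 1.42.0, limma 3.58.1 on log2(FPKM + 1) and log2(FPKM + 0.1), other scalings, no filter, removal of a GC and length trend, a replicate block and each library left out.

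The 7 genes, pathway lists and marker lists were chosen with earlier results of these data known. Some core genes are not reported here. Named were the 7 genes, other core genes of each list, list genes past the threshold, and the 5 genes most and least like *Pck1*. *Slc38a2*, not a core gene, was added after its values were seen. Pools of mice are the replicates, so p-values measure spread between pools.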

Additional observations from a re-analysis of the deposited data

How the results depend on the processing

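The direction of *Pck1*, *Slc9a3*, *Slc4a4*, *Slc13a2* and *Slc13a3* was the same under all 15 alternatives. Counts of calls moved: genes higher (63) and lower (361) became 181 and 744 with DESeq2, 301 and 1038 without a filter, 10 and 118 with limma on log2(FPKM + 1), 10 and 109 on log2(FPKM + 0.1), 71 and 195 with total counts only (26.7% of calls higher, against 14.9%), 100 genes higher after removal of the GC and length trend, and 5 to 162 and 34 to 571 with a library left out. Of the 7 genes, 2 were called with DESeq2, 3 without a filter, 0 with either limma fit and 0 to 1 with a library left out. DESeq2 and the fit without a filter took in 29418 genes, of which 925 and 1339 were called. The reported fit called 424 of 16017. Of the list genes, 2 higher and 25 lower were called with DESeq2, 4 and 29 without a filter, 0 and 4 with either limma fit, 0 and 5 after the GC and length correction, 6 lower with total counts only, and 0 to 2 and 1 to 13 with a library left out. The causes were not tested.

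Replicate numbers are shared by the groups, but same-numbered libraries deviated together with correlations of only 0.0518, 0.1442 and 0.1695, so the numbers were not taken to pair them, although each library correlated best with its own number. With the replicate block, 224 of 16017 genes were higher and 705 lower. Of the 7 genes, 3 were called (*Pck1*, *Slc13a2*, *Slc13a3*). Among list genes, 2 were higher and 18 lower, against 1 and 12 without the block.

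Signs near 0 turned. With total counts only, which moved the median of all genes to 0.08, log2 fold changes were 0.053 for *Glud1*, 0.043 for *Ogdh*, 0.0052 for *Fbp1*, 0.016 for *Kcnj16*, 0.019 for *Insrr* and 0.033 for *Foxo1*. After the GC and length correction they were 0.0058 for *Glud1*, 0.028 for *Ogdh*, 0.0044 for *Mdh2*, 0.10 for *Fbp1*, 0.11 for *Slc25a1*, 8.4e-05 for *Ptk2b*, 0.026 for *Insrr*, -0.018 for *Creb1*, -0.041 for *Ppargc1a* and -0.021 for *Hnrnpd*. With a library left out they spanned -0.10 to 0.16 for *Slc38a3*, -0.041 to 0.019 for *Glud1*, -0.047 to 0.016 for *Ogdh*, -0.10 to 0.37 for *Pck2*, -0.14 to 0.012 for *Fbp1*, -0.15 to 0.12 for *Kcnj16*, -0.31 to 0.086 for *Kcnk5*, -0.0044 to 0.22 for *Acly*, -0.19 to 0.00017 for *Slc25a1*, -0.13 to 0.066 for *Insrr*, -0.013 to 0.091 for *Crtc2*, -0.066 to 0.15 for *Hnf4a* and -0.12 to 0.037 for *Foxo1*. With 3 pools per group, the intervals of *Slc9a3* and *Slc4a4* took in 0.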
